A study of Homo sapiens with 6 samples.

Results

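The genes described here encode the TSC complex (TSC1, TSC2 and TBC1D7), its target RHEB, and the mTOR kinase with its partners (MTOR, RPTOR, RICTOR, AKT1S1, DEPTOR and MLST8). These 10 genes of the 19775 tested were taken by name, with the large fall of TBC1D7 on these arrays already known. Each is described through every probe set that the platform annotation ties to it alone, 26 in all. The cells, MDA-MB-231, are an established triple-negative line from a human breast tumour. They received a small interfering RNA (siRNA) targeting SDC1, the gene of the heparan sulfate proteoglycan syndecan-1, on 3 arrays, or a negative control siRNA on the 3 other arrays. Replicates are described as independent. All 6 samples are of 1 cell line, and the sources used here give neither the siRNA sequences nor a dose or a time after transfection.

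The mTOR kinase works in a pair of complexes that sense nutrients and growth factors. In mTOR complex 1 it is joined by RAPTOR (gene RPTOR), which recruits substrates, and by the inhibitory subunit PRAS40 (gene AKT1S1), and in mTOR complex 2 by RICTOR, while mLST8 and the inhibitor DEPTOR are found in both. The small GTPase RHEB activates complex 1 at the lysosome. The TSC complex switches RHEB off: TSC2 carries the GTPase-activating domain, TSC1 stabilises TSC2, and TBC1D7 is the third subunit, which binds TSC1. In breast cancer the pathway is known as a main output of PI3K and AKT signalling. Messenger RNA was measured here, not protein, complex assembly or kinase activity.

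Each value is a log2 expression difference from the probe set's own median of the 6 arrays, so differences between arrays can be read but not levels of 1 gene against another. A coarse brightness class, read from the numeric step of the values, places each probe set at an absolute log2 signal between 2 and 4, between 4 and 8, or between 8 and 16. It was read from the 3 arrays where the probe set was highest, so it can rest on 1 group. Read from all 6 arrays, 223461_at of TBC1D7, 224982_at of AKT1S1 and 213409_s_at of RHEB, all classed 8 to 16, were between 4 and 8. A gene is given as the average of those probe sets of its own that lie in its brightest class. Fold changes divide SDC1 siRNA by control siRNA (n = 3 per group), and their standard errors (SE) come from a limma fit over all genes or over all probe sets, and a gene is said to have risen or fallen where its adjusted p in that fit is below 0.05. The members were chosen with this comparison known, so their values are given as a description, without p-values. SDC1 itself was at -1.14, -1.16 and -1.43 on the SDC1 siRNA arrays and at 1.13, 1.32 and 1.09 on the control siRNA arrays, a log2 fold change of -2.42 (SE 0.097). The poly-A controls, RNAs spiked into each sample before labelling, part the arrays by their values into a first batch (SDC1 siRNA replicates 1 and 2, control replicate 1) and a second (SDC1 siRNA replicate 3, control replicates 2 and 3), a split that the labels do not name. Of 7 measured marker genes of leukocytes, endothelium, liver, glia and heart, 0 passed the limma test, with log2 fold changes between -0.07 and 0.31. Of these 1, CD3E at 0.31, had an unadjusted p below 0.05 (0.0172). The groups of arrays did not overlap for CD3E and PTPRC, against 41.8% of all genes without overlap. Of 8 genes that mark the line or its triple-negative type, VIM, CD44 and EGFR fell, by 0.62, 0.68 and 0.41 on the log2 scale (adjusted p = 8.11e-05, 0.000388 and 0.00159). That is 37.5%, against 28.2% of all genes and 41.5% of genes of the brightest class. KRT18, KRT8, ERBB2, PGR and ESR1 did not pass, at -0.21, -0.07, 0.21, 0.14 and 0.02. ERBB2 and ESR1, and GFAP, VWF and PECAM1 of the other cell types, were classed 8 to 16. A bright class is thus not taken to show that a gene is expressed.

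Of the 10 members, 6 differed between the groups in the fit over genes. TBC1D7, RICTOR and MTOR fell, and AKT1S1, MLST8 and RPTOR rose. Over all genes tested 28.2% passed the same threshold, 13.0% higher and 15.2% lower, and over genes of the brightest class 41.5%. Of the 7 members in that class 4 passed, and of the 2 in the middle class both did, against 19.9% of genes there. TBC1D7 and AKT1S1, among those 4, are in the brightest class only through the group where they were high. The 3 arrays of one group did not overlap the 3 of the other for 8 of the 10 genes, against 41.8% of all genes. Of the 26 probe sets, 5 rose and 8 fell, against 9.70% higher and 10.1% lower of all probe sets (19.8% in all). The groups of arrays did not overlap for 16 of the 26, against 35.7% of all probe sets. Nothing is read from these counts, since the choice of members used the comparison.

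**Figure D1:**
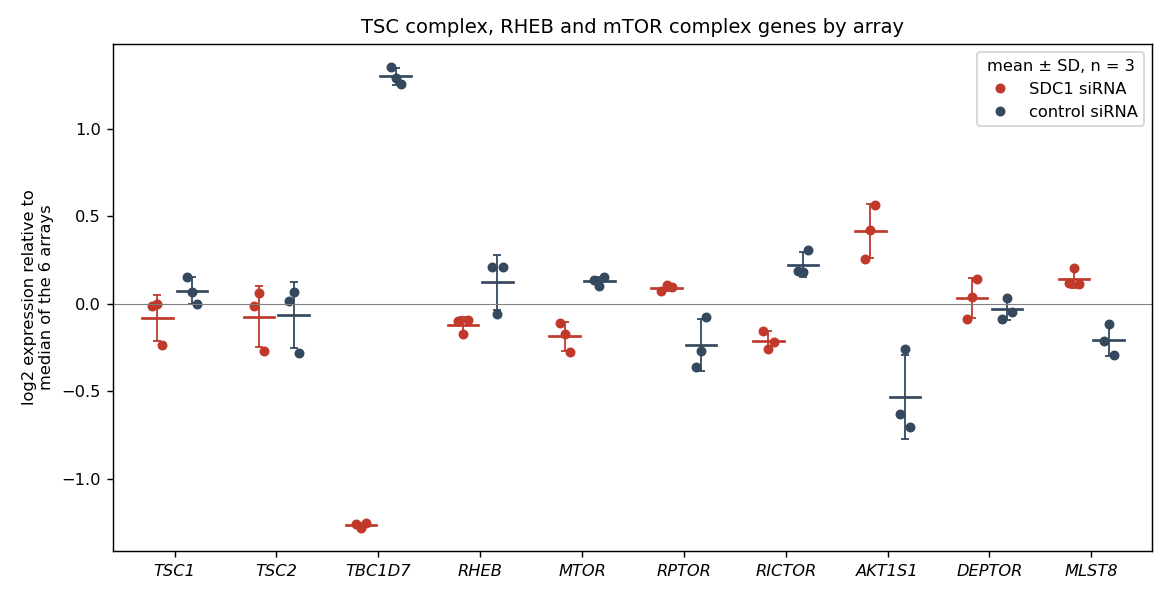
Log2 expression relative to the median of the 6 arrays (y axis) for the 10 genes (x axis), SDC1 siRNA arrays left and control siRNA arrays right of each gene. Points are arrays and bars are mean ± SD (n = 3). TBC1D7 stands apart with SDC1 siRNA arrays near -1.26 and control siRNA arrays near 1.30, and AKT1S1 shows the widest gap in the other direction.

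TBC1D7 showed the largest difference of the 10. Its bright probe set, 223461_at, was at -1.26, -1.28 and -1.25 on the SDC1 siRNA arrays, against 1.35, 1.29 and 1.25 on the control siRNA arrays. The 3 SDC1 siRNA arrays lay within a few hundredths of each other and far below every control array. The log2 fold change was -2.56 (SE 0.058), which left 16.9% of the control signal, and it was the 9th lowest of 19775 genes. The other TBC1D7 probe set, 1563839_at, of the dimmest class, did not share this pattern. It was at 0.0079, -0.15 and -0.0050 on the SDC1 siRNA arrays, against -0.13, 0.0050 and 0.20 on the control siRNA arrays. Here the groups overlapped, and the log2 fold change was -0.07 (SE 0.099). With both probe sets averaged TBC1D7 was at -1.32. Which transcripts of the gene each probe set reads is not given in the tables used here, and a RefSeq readthrough gene, TBC1D7-LOC100130357, overlaps it.

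The other subunits of the TSC complex differed little. TSC1, read by 1 bright probe set, was at -0.01, -0.0016 and -0.23 on the SDC1 siRNA arrays and at 0.15, 0.07 and 0.0016 on the control siRNA arrays. The groups were next to each other without overlap, and the log2 fold change of -0.16 (SE 0.081) did not pass. A fit that blocked on the spike-in batch gave -0.21, which passed. TSC2, the subunit that acts on RHEB, was at -0.01, 0.06 and -0.27 on the SDC1 siRNA arrays and at 0.01, 0.07 and -0.28 on the control siRNA arrays with its bright probe set, 215735_s_at. These values overlap almost entirely, for a log2 fold change of -0.0076 (SE 0.12). The dim TSC2 probe set, 215624_at, was at 0.06, 0.17 and 0.57 on the SDC1 siRNA arrays, against -0.06, -0.12 and -0.09 on the control siRNA arrays. The groups did not overlap there, with SDC1 siRNA replicate 3 the highest array, but the log2 fold change of 0.35 (SE 0.12) did not pass, except without SDC1 siRNA replicate 1 (0.46). PKD1, which overlaps TSC2 in RefSeq, was at 0.16 (SE 0.073, adjusted p = 0.141). The log2 fold changes of the 3 TSC complex genes thus ran from -2.56 for TBC1D7 through -0.16 for TSC1 to -0.0076 for TSC2.

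RHEB, the GTPase on which the TSC complex acts, is read by 9 probe sets, more than any other member. Its gene value, the mean of 3 bright probe sets, was at -0.10, -0.17 and -0.09 on the SDC1 siRNA arrays and at 0.21, -0.06 and 0.21 on the control siRNA arrays. Control replicate 2 lay close to the SDC1 siRNA arrays through 1 of these probe sets, 213409_s_at, whose control siRNA arrays were at 0.36, -0.28 and 0.47. This probe set was between 4 and 8 where the class was read from all 6 arrays. In the others averaged, 1555780_a_at and 213404_s_at, the groups did not overlap. The log2 fold change of RHEB, -0.24 (SE 0.084), did not pass. Without control replicate 2 it was -0.33 and passed. It also passed with the replicate number as a block, with a robust prior, with cross-hybridising (_x_at) probe sets treated like the others, and where the class was read from all 6 arrays. Of the 9 probe sets 3 fell and 6 did not pass, with log2 fold changes from -0.60 to 0.32. The lowest, 201452_at, was at -0.23, -0.45 and -0.32 on the SDC1 siRNA arrays and at 0.31, 0.23 and 0.25 on the control siRNA arrays, for a log2 fold change of -0.60 (SE 0.080). The bright 1555780_a_at and 201453_x_at fell by 0.31 and 0.26 on the log2 scale. The call of 1555780_a_at was lost in 4 of the 6 fits that leave out 1 array each, and that of 201453_x_at in all 6. The highest, 243008_at, had overlapping groups and a log2 fold change of 0.32 (SE 0.17).

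MTOR, the kinase itself, was lower after SDC1 siRNA. Its gene value was -0.11, -0.17 and -0.28 on the SDC1 siRNA arrays, against 0.14, 0.10 and 0.15 on the control siRNA arrays. The groups did not overlap, and the log2 fold change was -0.32 (SE 0.064), or 80.3% of control. One of its probe sets carried more of this than the other. Probe set 202288_at was at -0.17, -0.38 and -0.19 on the SDC1 siRNA arrays and at 0.17, 0.24 and 0.21 on the control siRNA arrays, a log2 fold change of -0.45 (SE 0.081). Probe set 215381_at gave -0.18 (SE 0.11), with overlapping groups, and did not pass. ANGPTL7, a gene that RefSeq places within the interval of MTOR, was at 0.17 (adjusted p = 0.233).

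RICTOR, the scaffold that defines mTOR complex 2, fell on its bright probe sets. Averaged, they were at -0.15, -0.26 and -0.22 on the SDC1 siRNA arrays and at 0.19, 0.18 and 0.31 on the control siRNA arrays. Every SDC1 siRNA array was below every control array, for a log2 fold change of -0.43 (SE 0.064), or 74.0% of control. The 3 bright probe sets gave nearly equal changes, -0.44 for 226310_at, -0.42 for 226312_at and -0.44 for 228248_at. The fourth, 1552734_at, of the dimmest class, moved the other way. It was at 0.28, 0.05 and 0.39 on the SDC1 siRNA arrays and at -0.05, -0.14 and -0.29 on the control siRNA arrays. The groups again did not overlap, and the log2 fold change was 0.40 (SE 0.10). That rise no longer passed with the replicate number as a block, nor without SDC1 siRNA replicate 1 or 3 or control replicate 2 or 3. With all 4 probe sets averaged RICTOR was at -0.22. OSMR, an oncostatin M receptor chain whose RefSeq interval overlaps that of RICTOR, fell by 0.57 (log2, SE 0.059, adjusted p = 0.000181), and whether the probe sets of either gene read the other was not tested.

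**Figure D2:**
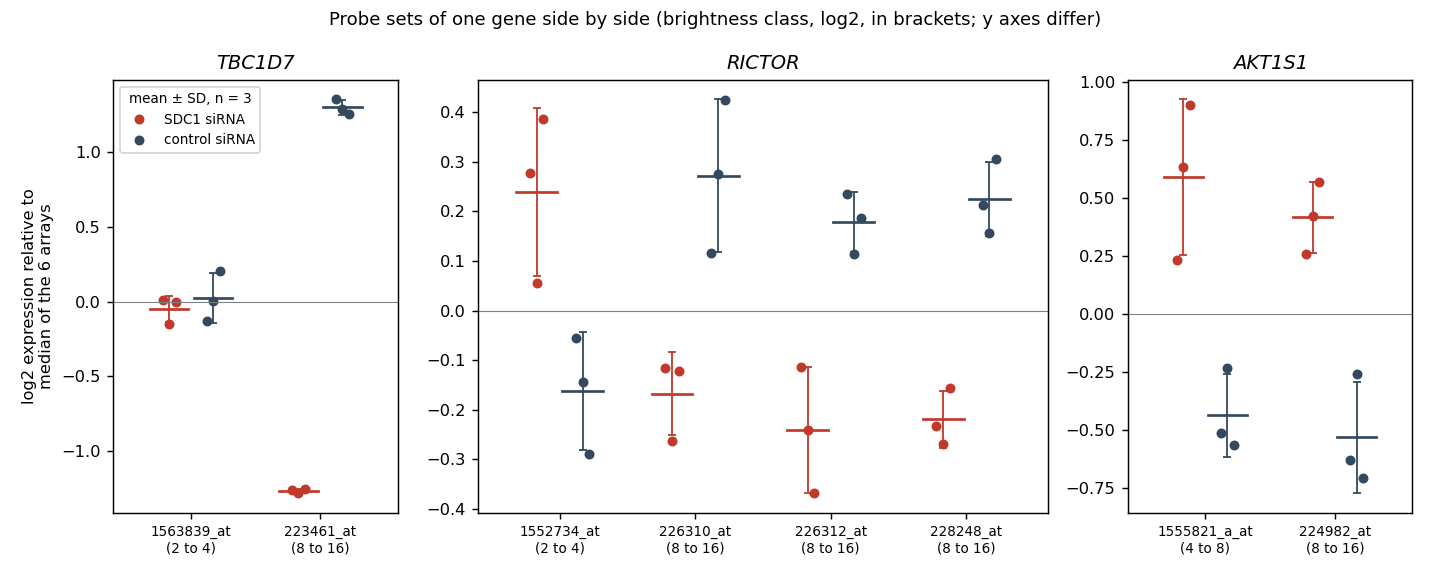
Log2 expression relative to the median of the 6 arrays (y axis, scaled separately in each panel) for each probe set of TBC1D7, RICTOR and AKT1S1 (x axis, brightness class in brackets). Points are arrays, SDC1 siRNA left and control siRNA right, and bars are mean ± SD (n = 3). The TBC1D7 probe sets give -2.56 and -0.07, the dim RICTOR probe set gives 0.40 where the other 3 are near -0.43, and both AKT1S1 probe sets are higher after SDC1 siRNA.

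AKT1S1, which encodes the inhibitor PRAS40, rose most among the 10. Its bright probe set, 224982_at, was at 0.26, 0.42 and 0.57 on the SDC1 siRNA arrays, against -0.63, -0.26 and -0.71 on the control siRNA arrays. The groups were well apart although both were spread, with an SD of 0.15 among SDC1 siRNA arrays and 0.24 among control siRNA arrays. The log2 fold change was 0.95 (SE 0.13), a 1.93-fold gain, and it ranked 166th from the top of 19775 genes. The dimmer probe set, 1555821_a_at, was at 0.23, 0.63 and 0.90 on the SDC1 siRNA arrays and at -0.51, -0.23 and -0.56 on the control siRNA arrays. It gave a log2 fold change of 1.02 (SE 0.16), within 1 SE of the bright one. In both, SDC1 siRNA replicate 1 was the lowest of its group and control replicate 2 the highest of its own. TBC1D17, which overlaps AKT1S1 in RefSeq, was at 0.10 (adjusted p = 0.358).

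RPTOR and MLST8, each read by 1 probe set, were also higher. RPTOR, the substrate-recruiting subunit of complex 1, was at 0.07, 0.11 and 0.10 on the SDC1 siRNA arrays, against -0.36, -0.27 and -0.07 on the control siRNA arrays. The SDC1 siRNA arrays were close together and the control siRNA arrays spread, and the log2 fold change was 0.33 (SE 0.080), or 125.5% of control. MLST8, a subunit shared by both complexes, was at 0.12, 0.20 and 0.11 on the SDC1 siRNA arrays, against -0.21, -0.11 and -0.29 on the control siRNA arrays. Its groups did not overlap, and the log2 fold change was 0.35 (SE 0.068), or 127.5% of control. BRICD5, which overlaps MLST8 in RefSeq, was at -0.27 (adjusted p = 0.0561). In the fit over probe sets the RPTOR call was lost without any 1 of 5 arrays (all but control replicate 3) and the MLST8 call without SDC1 siRNA replicate 2. Neither gene lost its call in the fit over genes when any 1 array was left out. RPTOR passed there only narrowly without any 1 of the same 5 arrays, and both fits use the same values for these genes.

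DEPTOR, the inhibitor found in both complexes, has 2 probe sets, both of the dimmest class. Its gene value was -0.08, 0.04 and 0.14 on the SDC1 siRNA arrays and -0.08, 0.04 and -0.04 on the control siRNA arrays. The groups overlapped and the log2 fold change was 0.06 (SE 0.074). Of genes in that class 4.92% passed the test.

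**Figure D3:**
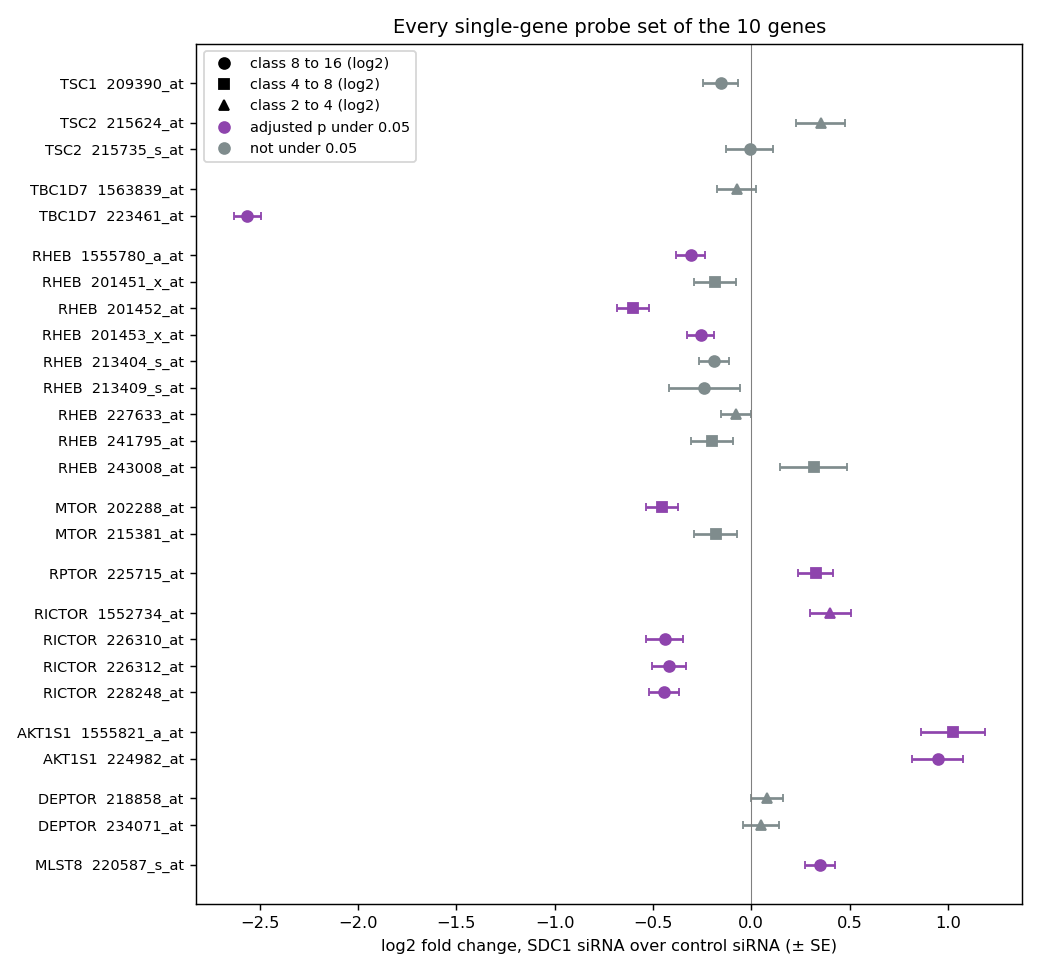
Log2 fold change of each of the 26 probe sets (x axis, SDC1 siRNA over control siRNA, bars ± SE of the limma fit over all probe sets), grouped by gene down the y axis. Marker shape gives the brightness class and colour whether the adjusted p was below 0.05. Most changes lie between -0.60 and 0.40, with 223461_at of TBC1D7 at -2.56 and the AKT1S1 pair at 0.95 and 1.02 outside.

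Ordered by gene-level log2 fold change the members ran TBC1D7 (-2.56), RICTOR (-0.43), MTOR (-0.32), RHEB (-0.24), TSC1 (-0.16), TSC2 (-0.0076), DEPTOR (0.06), RPTOR (0.33), MLST8 (0.35) and AKT1S1 (0.95). Neighbours from RICTOR to DEPTOR, and RPTOR and MLST8, lay within 2 SE of each other and their order is not settled. The gap between TBC1D7 and RICTOR, and that between MLST8 and AKT1S1, was several SE wide. Within complex 1 the kinase transcript fell while those of its partners RAPTOR, mLST8 and PRAS40 rose. Among complex 2 transcripts those of the kinase and of RICTOR fell and that of mLST8 rose. The transcript of DEPTOR, a partner in both complexes, was at 0.06 and did not pass. Of the complex 2 subunits outside the 10 genes, named here with their values known, MAPKAP1, which encodes SIN1, rose by 0.20 (log2, adjusted p = 0.0434), PRR5L rose by 0.28 (adjusted p = 0.00461) and PRR5 was at 0.04 (adjusted p = 0.764). All 6 members that passed kept their direction in both spike-in batches, as did all 5570 genes called. TBC1D7 was at -2.62 in the first batch and -2.53 in the second, and AKT1S1 at 0.97 and 1.05. RICTOR was at -0.39 and -0.46, MTOR at -0.28 and -0.40, RPTOR at 0.45 and 0.27, and MLST8 at 0.37 and 0.32. In each batch one group has a single array, and no test was run within it. With each array left out in turn TBC1D7 stayed between -2.59 and -2.54 and AKT1S1 between 0.86 and 1.08.

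**Figure D4:**
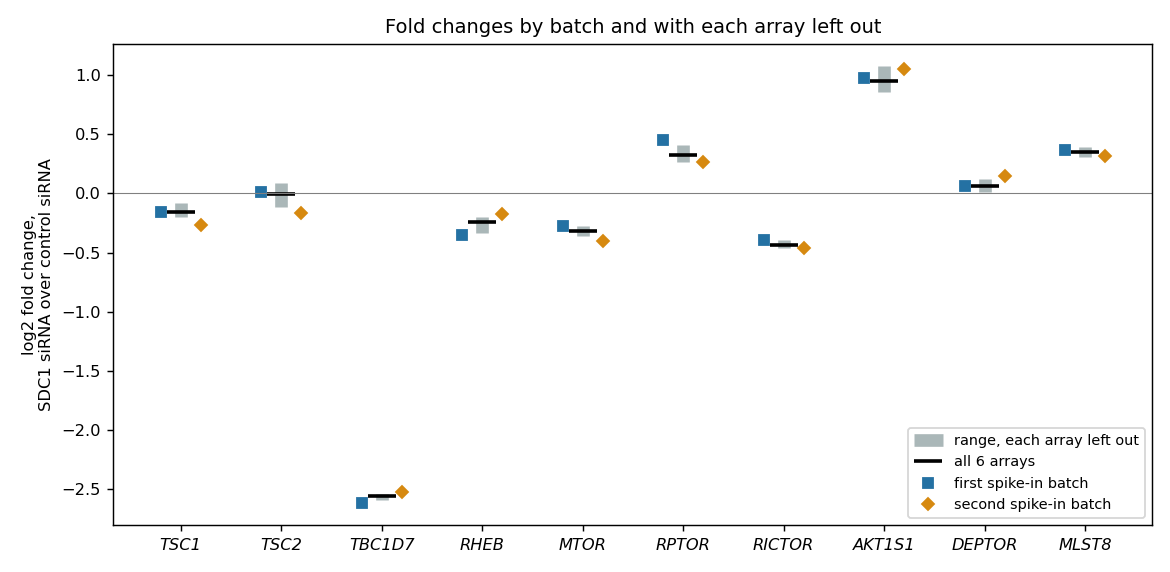
Log2 fold change (y axis, SDC1 siRNA over control siRNA) of each gene (x axis) with all 6 arrays (black bar), in the first and second spike-in batch (square and diamond) and over the fits that each leave out 1 array (grey range). TBC1D7 stays between -2.62 and -2.53, and TSC2 is the gene whose sign changes.

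The proximal promoters were read from the RefSeq table of GRCh38.p14, which held 7 of the 10 genes (AKT1S1, DEPTOR and MLST8 not among them). Shown are the 250 bases before the annotated start of TBC1D7, which had the largest fall, of RICTOR, which also fell, and of RPTOR, which rose, 5′ to 3′ on the strand of the gene. Capitals mark matches on either strand to GGGCGG (the core of the GC box), to CCAAT (the CCAAT box) or to TATAAA (the TATA box).
TBC1D7, chr6:13328538-13328787, minus strand: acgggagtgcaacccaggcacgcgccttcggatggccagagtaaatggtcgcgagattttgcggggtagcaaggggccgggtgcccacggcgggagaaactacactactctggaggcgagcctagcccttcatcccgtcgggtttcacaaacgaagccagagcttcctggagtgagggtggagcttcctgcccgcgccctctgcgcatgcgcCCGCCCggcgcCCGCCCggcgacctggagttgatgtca
RICTOR, chr5:39074400-39074649, minus strand: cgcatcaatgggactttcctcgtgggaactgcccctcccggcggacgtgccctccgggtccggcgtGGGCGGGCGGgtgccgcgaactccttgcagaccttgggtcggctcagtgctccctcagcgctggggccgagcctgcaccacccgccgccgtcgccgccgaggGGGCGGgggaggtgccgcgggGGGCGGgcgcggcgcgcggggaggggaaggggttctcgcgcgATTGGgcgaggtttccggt
RPTOR, chr17:80544588-80544837, plus strand: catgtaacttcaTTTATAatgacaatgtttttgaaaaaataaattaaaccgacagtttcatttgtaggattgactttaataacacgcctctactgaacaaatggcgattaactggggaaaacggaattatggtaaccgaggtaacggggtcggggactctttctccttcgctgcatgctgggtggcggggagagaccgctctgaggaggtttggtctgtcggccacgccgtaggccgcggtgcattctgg
The 250 bases before TBC1D7 was 65.6% G or C with 24 CpG, against a median of 58.0% and 11 over 35116 promoters, and that before RICTOR 76.0% with 35 CpG. RPTOR had 47.2% and 15 CpG. MTOR, which also fell, had 55.6% and 11 CpG. Of the members that did not pass, TSC1 had 62.0% and 22, TSC2 71.6% and 27, and RHEB 63.2% and 24. The GC box core was found 2 times before TBC1D7, beginning 38 and 27 bases before the start, and 4 times before RICTOR, of which 2 overlap. It was also found before TSC1 (2), TSC2 (1), RHEB (4) and MTOR (1) but not before RPTOR, and 42.6% of all promoters hold it. CCAAT was found before MTOR (3), RHEB (2) and RICTOR (1), against 32.0% of all promoters. TATAAA was found before RPTOR, 238 bases from the start, against 10.7% of all promoters. The E-box CACGTG was found before TSC2 (6.34% of all promoters), and neither the cAMP response element TGACGTCA (1.65%) nor the interferon-type repeat, GAAA and GAAA parted by any 2 bases (3.02%), was found before any of the 7. These matches describe the letters in these windows and no binding was measured.

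Beyond the 10 genes, 6 lists of the pathway and of the TBC1D7 family held 130 measured genes, of which 25 rose and 28 fell. That is 40.8% called, against 28.2% of all genes. Among the 96 in the brightest class 41.7% were called, against 41.5% of all genes there, and among the 33 in the middle class 36.4%, against 19.9%. The other subunits and assembly factors of the mTOR complexes had 4 of 9 higher and 2 lower, against 13.0% and 15.2% of all genes, with a median log2 fold change of 0.18 against 0.0045 over all genes. RHEBL1, the close relative of RHEB, fell by 1.45 (log2, SE 0.092, adjusted p = 1.45e-05). It was at -0.60, -0.66 and -0.71 on the SDC1 siRNA arrays and at 0.95, 0.83 and 0.60 on the control siRNA arrays, without overlap, and its dimmer probe set gave -1.80. RUVBL2, an ATPase that helps assemble mTOR-type kinases, rose by 0.67 (SE 0.056, adjusted p = 6.25e-05). PRR5L, a partner of mTOR complex 2, rose by 0.28 as the mean of probe sets between -0.22 and 0.77, and TTI2, of the chaperone complex for mTOR-type kinases, fell by 0.31 (adjusted p = 0.00928). The 4 higher were 2 without SDC1 siRNA replicate 2 or 3 or control replicate 3.

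**Figure D5:**
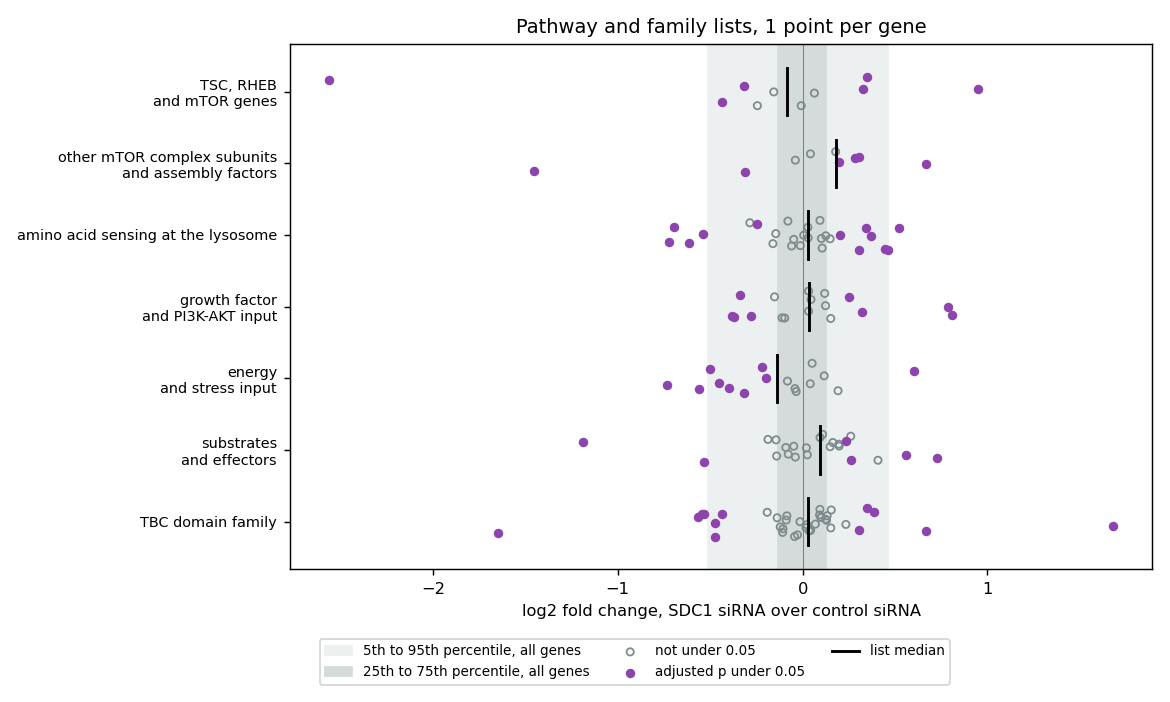
Log2 fold change of each measured gene (x axis, SDC1 siRNA over control siRNA) by list (y axis), filled where the adjusted p was below 0.05, with list medians as black bars. Shading gives the percentiles of all 19775 genes. Most genes lie between the 5th and 95th percentile of all genes (-0.51 and 0.46), and the energy and stress list has its median at -0.14.

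Genes of amino acid sensing at the lysosome had 7 of 27 higher and 5 lower, 44.4% in all, against 28.2% of all genes (13.0% higher and 15.2% lower), with a median of 0.03. In the brightest class, to which most of these genes belong, 41.5% of all genes were called. FNIP2, a partner of folliculin, fell by 0.69 (SE 0.058, adjusted p = 6.13e-05), and RRAGC, a Rag GTPase that docks complex 1 at the lysosome, by 0.61 (SE 0.057, adjusted p = 0.000105). RRAGC was at -0.29, -0.30 and -0.32 on the SDC1 siRNA arrays and at 0.29, 0.37 and 0.29 on the control siRNA arrays. Dim probe sets of the same genes gave -0.07 and 0.04, and RRAGC was at -0.40 with all its probe sets averaged. The arginine sensor CASTOR1 fell by 0.54 (SE 0.070, adjusted p = 0.00058). LAMTOR3, a subunit of the Ragulator complex that anchors the Rag GTPases, rose by 0.52 (SE 0.054, adjusted p = 0.000192), and its dimmer probe set gave 1.49. Of the 4 Ragulator subunits measured 3 rose and 1 fell, a group singled out after its values were seen.

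Among genes of growth factor and PI3K-AKT input 4 of 17 rose and 4 fell, 47.1% in all, against 28.2% of all genes (13.0% higher and 15.2% lower), with a median of 0.03. Most of them were of the brightest class, where 41.5% of all genes were called. PDPK1, the kinase that phosphorylates AKT and S6 kinase, rose by 0.79 in its bright probe set (SE 0.065, adjusted p = 5.9e-05), but by 0.29 with all 6 averaged. MAPK3, the kinase ERK1, rose by 0.81 (SE 0.073, adjusted p = 9.02e-05) on a cross-hybridising probe set, the one it has. RPS6KA3, the kinase RSK2, which can phosphorylate TSC2 and RAPTOR, fell by 0.34 (adjusted p = 0.00244). IRS1, the insulin receptor adaptor, was at -0.37 (adjusted p = 0.00311) as the mean of bright probe sets at -0.74 and -0.01, and lost its call with all probe sets averaged (-0.10) and where the class was read from all 6 arrays (-0.0088).

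The energy and stress list leaned to lower values, with 8 of 16 lower and 1 higher and a median of -0.14 (-0.21 in the first batch and -0.24 in the second). Over all genes 15.2% were lower and 13.0% higher. Most of the list was of the brightest class, where 41.5% of all genes were called in either direction. Without control replicate 2 the number lower was 5. PRKAB2 and PRKAB1, the beta subunits of AMP-activated protein kinase, which phosphorylates TSC2 and RAPTOR when energy is short, fell by 0.73 (SE 0.057, adjusted p = 4.17e-05) and 0.50 (SE 0.068, adjusted p = 0.000748). PRKAB2 was at -0.38, -0.38 and -0.33 on the SDC1 siRNA arrays, against 0.41, 0.33 and 0.36 on the control siRNA arrays. CAB39L, a scaffold of the upstream kinase LKB1, fell by 0.56 (SE 0.059, adjusted p = 0.000197). Of the 6 AMP-activated protein kinase subunits in the list, counted together after their values were seen, 5 fell and PRKAA1 was at -0.04 (adjusted p = 0.834). DDIT4L, a stress-induced inhibitor of complex 1, was the member that rose, by 0.60 (SE 0.069, adjusted p = 0.000295), while its relative DDIT4 was at -0.08 (adjusted p = 0.586).

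Substrates and effectors of mTOR had 4 of 23 higher and 2 lower, 26.1% in all, which is below the 28.2% of all genes, with a median of 0.09. Genes of the brightest class, where most of this list lay, were called in 41.5%. SGK1, a kinase that mTOR complex 2 activates, fell by 1.19 (SE 0.18, adjusted p = 0.00124). It was at -1.07, -1.07 and -0.33 on the SDC1 siRNA arrays and at 0.33, 0.38 and 0.39 on the control siRNA arrays, so SDC1 siRNA replicate 3 stood apart. In the second batch, which holds that array, SGK1 was at -0.72, against -1.40 in the first. GRB10, an adaptor that complex 1 phosphorylates, fell by 0.53 (SE 0.064, adjusted p = 0.000387). ULK1, the kinase that starts autophagy, rose by 0.56 (SE 0.074, adjusted p = 0.000632), and LPIN1, a phosphatidate phosphatase and substrate of complex 1, by 0.73 (SE 0.13, adjusted p = 0.00294), with 0.78 in the first batch and 0.47 in the second. The S6 kinase RPS6KB1 and the translation repressor EIF4EBP1, the best known substrates of complex 1 and named here after their values were seen, were at 0.03 and 0.02 (adjusted p = 0.812 and 0.889). The 4 higher were 2 without control replicate 3.

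TBC1D7 takes its name from the TBC domain that most of its relatives use to switch off RAB GTPases. In this family 5 of 38 other genes rose and 7 fell, 31.6% in all, against 28.2% of all genes (13.0% higher and 15.2% lower), with a median of 0.03. Most of the family was of the brightest class, where 41.5% of all genes were called. TBC1D9 fell by 1.65 (SE 0.061, adjusted p = 1.55e-06), at -0.78, -0.80 and -0.87 on the SDC1 siRNA arrays, against 0.88, 0.78 and 0.83 on the control siRNA arrays. With all its probe sets averaged it was at -0.81. TBC1D30 rose by 1.68 (SE 0.14, adjusted p = 5.48e-05), by 1.04 with all probe sets averaged, or by 0.72 where the class was read from all 6 arrays. It was at 0.71, 0.74 and 0.87 on the SDC1 siRNA arrays and at -0.71, -0.75 and -1.26 on the control siRNA arrays. TBC1D14, a regulator of autophagy, rose by 0.67 (SE 0.061, adjusted p = 9.05e-05) and TBC1D2, which acts on RAB7, fell by 0.56 (SE 0.075, adjusted p = 0.000634). The family's log2 fold changes ran from -1.65 to 1.68. TBC1D7, at -2.56, was taken with its fall known, so its place outside that range is a description. With both its probe sets averaged TBC1D7 was at -1.32.

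Of the 3 nearest measured genes on each side of TBC1D7 on chromosome 6 in the RefSeq order, PHACTR1, a regulator of phosphatase and actin, fell by 0.67 (SE 0.061, adjusted p = 9.3e-05) and SIRT5, a mitochondrial deacylase, by 0.31 (SE 0.081, adjusted p = 0.0211). LINC02530, LOC100130357, GFOD1 and NOL7 were at -0.06, 0.07, 0.20 and 0.08 (adjusted p = 0.771, 0.761, 0.0545 and 0.371). The genes whose 6 array values were nearest to those of TBC1D7, by root mean square difference, were HMGA2 (0.101), IFIT2 (0.105), IFIT3 (0.129), ST8SIA4 (0.146) and SDC1 (0.151, all log2). Their log2 fold changes lay between -2.79 and -2.42. All of them share a wide step between the groups, which follows from how they were chosen. The TBC1D7 values used for this were those of 223461_at alone. All 24 genes named from the lists kept their direction in both spike-in batches, as did all 5570 genes called. They were named because they passed on these same arrays, so this does not set them apart.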

How the data were processed

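Total RNA of 6 MDA-MB-231 samples was hybridised to 1 Affymetrix array each, per the labels' protocols. The deposited log2 values come from RMA, per the submitters' processing notes, with other steps not stated there. Every probe set's median over the arrays lay within 5.0e-07 of 0, so the authors' log2 values are relative to it. The base of the logarithm and the brightness class were read from the numeric steps of the values (tolerance 8e-08), and the class can place a probe set too high. Without background values no probe set was called detected or not.

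The platform annotation ties 41091 probe sets to 1 gene, 1801 to several and 11721 to none, beside 62 controls, and 41037 were matched to RefSeq (GRCh38.p14). Fits used limma 3.58.1 in R 4.3.3 (lmFit, eBayes, 2-sided, no covariates) over 54613 probe sets or 19775 genes, with Benjamini-Hochberg adjustment over all of them. An _x_at probe set entered a gene only where it had no other. From the lists, 10 genes without a single-gene probe set were not analysed here. Members, lists and tests were chosen with earlier results of these data known. Named were all members, up to 4 genes of each other list by lowest p among those past the threshold, the 5 genes nearest to TBC1D7 and its 3 neighbours on each side. Any other gene was named with its value known.

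Tested on simulated data, the gene fit recovered 69 of 100 genes changed by 0.5 and 95 of 100 changed by 1 (log2), and the probe set fit 28 and 90 of 100. Only those genes or probe sets were changed, whereas 28.2% of genes and 19.8% of probe sets passed on the arrays. The adjusted threshold depends on that share, so the simulated recovery does not carry over to these data. The number of arrays limits the precision, and p-values measure only the spread between these samples, which may be technical. Deviations of same-numbered samples correlated at 0.015, 0.081 and 0.099, and those of differently numbered samples at -0.117 to 0.04. With so few arrays these values do not settle whether the numbers mark pairs. The replicates are described as independent, and the main fits did not pair them.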

Additional observations from a re-analysis of the deposited data

How the results depend on the processing

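Among the member genes, the 3 higher stayed 3 and the 3 lower were 3 or 4 under every alternative that gave a test, the fourth being RHEB or, where the block was the spike-in batch, TSC1. The 5 member probe sets that rose were 3 to 4 with 1 array left out (3 without SDC1 siRNA replicate 2 or 3 or control replicate 2), and fewer arrays entered those fits. TSC2 changed sign: its gene value was 0.17 with all probe sets averaged, 0.0100 in the first spike-in batch, 0.0899 without SDC1 siRNA replicate 3, and above 0 without control replicate 1 or 2 as well (-0.115 to 0.0899 over the arrays left out), and its bright probe set 215735_s_at gave the same values in the batch and with arrays left out. The dim TBC1D7 probe set 1563839_at was at 0.0605 in the first batch and 0.0143 without control replicate 3 (-0.153 to 0.0143 over the arrays left out), RHEB probe set 243008_at at -0.0539 in the second batch, and DEPTOR probe set 234071_at at -0.00687 without control replicate 1 (-0.00687 to 0.118). None of these values passed the test in the fit with all arrays, and the cause was not tested. With the replicate number as a block, 3 member genes were higher and 4 lower, RHEB (-0.24) being gained, and 25 and 29 of the listed genes, and the member probe sets were 4 higher and 7 lower, 201453_x_at of RHEB and 1552734_at of RICTOR being lost. The class from all 6 arrays was an alternative chosen after seeing the data. Of 100 simulated probe sets changed by 0.5 on the log2 scale, 28 were recovered. Smaller changes passed on the arrays themselves, such as that of 201453_x_at at -0.26, though its call was lost with any 1 array left out. The dimmest class gave few calls.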
